A study of Homo sapiens with 12 samples.

Results

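Troponin and tropomyosin genes were followed in cardiomyocytes made from RUES2 cells, an established human embryonic stem cell line with the genotype given as WT. With earlier results of these data known, the 9 genes were taken by name, and by no rule on their values, from a count table of 60583 gene names. They are the slow skeletal and the cardiac troponin I genes TNNI1 and TNNI3, the slow skeletal and the cardiac troponin T genes TNNT1 and TNNT2, the slow and cardiac troponin C gene TNNC1, and the tropomyosin genes TPM1, TPM2, TPM3 and TPM4. All 9 passed the filter on low counts, as did 21298 genes in all (35.2% of the table). At day 50 of differentiation the cells were moved for 3 days to electrospun fibre scaffolds. These were made either of 8% polyvinyl alcohol (PVA), which does not conduct, or of 9.75% PEDOT:PSS/PVA, which contains a conducting polymer and is called PEDOT here. The study asked how cardiac gene expression differs between the scaffolds. Each scaffold had 3 biological replicates numbered 1 to 3 and 2 technical libraries per replicate, which gave 12 RNA sequencing libraries and, after adding technical libraries together, 6 sums.

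Troponin and tropomyosin form the calcium switch of the thin filament in striated muscle. Troponin C binds calcium, troponin I holds the filament off at rest, and troponin T ties both to tropomyosin, which lies along actin and covers the myosin binding sites. The human heart expresses TNNI1 before birth and replaces it with TNNI3 after birth, and cardiomyocytes made from stem cells are known for keeping TNNI1. TPM3 and TPM4 also give cytoskeletal tropomyosins in non-muscle cells, and TPM1 and TPM2 are expressed in smooth muscle as well as in striated muscle.

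On hg38, in the deposited table, TNNI1 (chr1:201403768-201429866) and TNNT2 (chr1:201359008-201377764) lie near each other on the minus strand of chromosome 1, as do TNNI3 (chr19:55151767-55157773) and TNNT1 (chr19:55132698-55149206) on the minus strand of chromosome 19. TNNC1 (chr3:52451100-52454041), TPM2 (chr9:35681992-35690056) and TPM3 (chr1:154155304-154194648) also lie on the minus strand, and TPM1 (chr15:63042632-63071915) and TPM4 (chr19:16067021-16103002) on the plus strand.

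Library totals ran from 19.12 to 30.95 M counts and those of the sums from 44.5 to 57.5 M. Cardiomyocyte markers summed to 59560 to 80790 CPM (counts scaled to library size with TMM factors) in the 3 PVA sums and 68750 to 90120 in the 3 PEDOT sums, and all 10 of them passed the filter. TTN was the largest part of that, at 34510 to 54740 CPM over the 6 sums. Endothelial markers summed to 12.9 to 22.45 CPM over the 6 sums, and most of it was KDR, at 12.15 to 20.79 CPM. Of the myogenic factors that define skeletal muscle, MYF5 had 0 counts in all 12 libraries, MYF6 had 0 to 3, MYOG 6 to 17 and MYOD1 13 to 63 counts per library. MYOD1 lay at 0.914 to 1.81 CPM over the 6 sums and was called over the replicate number (F test, edgeR adjusted p = 0.0312). Fibroblast markers summed to 3702, 819.9 and 3230 CPM in PVA replicates 1, 2 and 3 and to 6765, 845.7 and 3627 CPM in PEDOT replicates 1, 2 and 3. Both replicates numbered 2 were thus the lowest in fibroblast markers. In bulk RNA, fewer cells of a type and less RNA per cell cannot be told apart.

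For the cardiac isoform genes TNNT2 and TNNI3, part of the annotated sequence also belongs to another gene. The counting command names no option for reads that lie in exons of more than 1 gene, and by the program's default such reads are left unassigned. How many reads this concerned was not measured, since unassigned reads are not in the table. A second annotated gene on the same strand, AC119427.2, covered 864 of the 864 coding bases (100%) of the principal TNNT2 transcript. It left 217 of its 1330 transcript bases to TNNT2 alone. For TNNI3, the gene AC010327.2 covered 338 of 630 coding bases (53.65%) of its principal transcript and left 361 of 840 transcript bases. The other 7 genes shared 0 coding bases with another gene of the same strand. Among 19342 genes with a principal coding transcript, 1119 (5.79%) shared at least 50% of their coding bases in this way. AC119427.2 itself received 61 to 171 counts per library and AC010327.2 received 0. These second genes were named after their values were seen.

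The boundary in TNNI3 is shown because it marks where annotated sequence passes from both genes to TNNI3 alone. The stretch is bases 207 to 506 of the coding sequence of that TNNI3 transcript (GENCODE 29, hg38, minus strand, exonic pieces within chr19:55154073-55156276). Capitals mark bases that also lie in exons of AC010327.2, and they end at coding base 356.
TNNI3: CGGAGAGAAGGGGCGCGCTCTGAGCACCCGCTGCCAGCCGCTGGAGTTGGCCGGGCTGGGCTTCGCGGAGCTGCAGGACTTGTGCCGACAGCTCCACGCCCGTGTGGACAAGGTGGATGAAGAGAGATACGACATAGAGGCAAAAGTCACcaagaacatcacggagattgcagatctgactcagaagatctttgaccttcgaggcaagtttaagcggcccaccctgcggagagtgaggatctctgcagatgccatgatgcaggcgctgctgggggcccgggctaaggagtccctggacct
A read pair within the capitals could belong to either gene, whereas the lower case part, up to coding base 630, belonged to TNNI3 alone. Coding bases 12 to 29 were also free of the second gene.

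**Figure D1:**
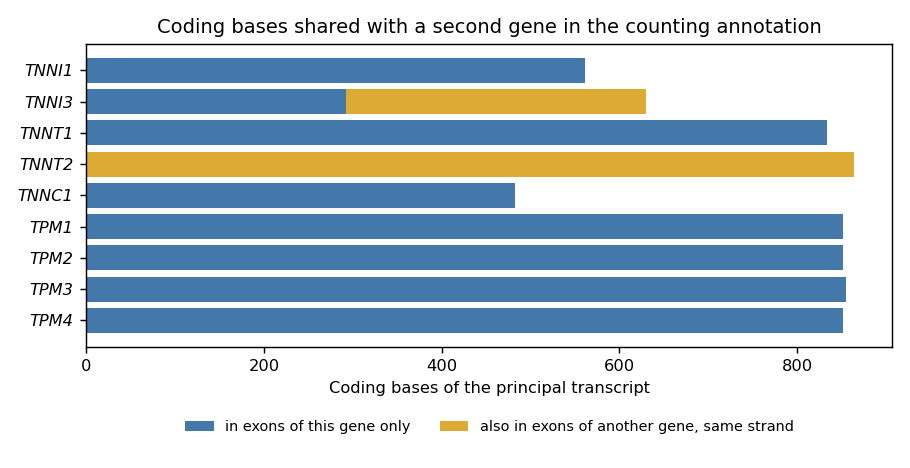
Coding bases of the principal transcript of each gene (horizontal axis), split into bases in exons of that gene only (blue) and bases also in exons of another gene on the same strand (yellow). TNNT2 had 864 of 864 coding bases shared and TNNI3 had 338 of 630, and the other 7 genes had 0.

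Sequence before a RefSeq start is shown for 4 genes, each with a match outside its own annotated exons. The TPM4 piece lies within the span of TPM4 in the deposited table, given above. RefSeq windows (GRCh38.p14, 250 bases before the start) were at hand for 7 of the 9 genes, in 11 windows, with none for TNNI1 and TNNC1. Each piece below is the part of the window outside the exons of the gene in the deposited table, 5′ to 3′ on the gene's strand, with the motif match in capitals.
TNNI3, chr19:55157774-55157982, minus strand: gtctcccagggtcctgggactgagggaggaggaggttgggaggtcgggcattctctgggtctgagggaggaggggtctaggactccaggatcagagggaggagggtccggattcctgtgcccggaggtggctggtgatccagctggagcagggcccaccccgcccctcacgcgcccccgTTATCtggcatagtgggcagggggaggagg
TNNT1, chr19:55149207-55149456, minus strand: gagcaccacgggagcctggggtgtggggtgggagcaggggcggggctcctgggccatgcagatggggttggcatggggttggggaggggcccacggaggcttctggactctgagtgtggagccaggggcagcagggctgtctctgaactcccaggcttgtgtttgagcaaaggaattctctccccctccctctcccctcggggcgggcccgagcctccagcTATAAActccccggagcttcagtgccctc
TNNT2, chr1:201377765-201377930, minus strand: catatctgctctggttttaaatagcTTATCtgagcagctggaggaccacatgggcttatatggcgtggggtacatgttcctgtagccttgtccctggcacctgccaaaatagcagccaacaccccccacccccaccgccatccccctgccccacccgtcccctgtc
TPM4, chr19:16067307-16067533, plus strand: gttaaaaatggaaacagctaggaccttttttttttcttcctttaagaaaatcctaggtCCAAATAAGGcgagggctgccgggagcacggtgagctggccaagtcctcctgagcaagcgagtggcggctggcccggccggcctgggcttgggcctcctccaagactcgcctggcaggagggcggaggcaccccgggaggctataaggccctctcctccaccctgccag
The motifs were searched on both strands. They were GATAA for GATA factors, CATTCC (MCAT) for TEAD factors, TATAAA for the TATA box, and the MEF2 and CArG motifs. TNNI3 held GATAA, read on the other strand, at 71 and at 7 bases before the start, the latter within an annotated exon and not shown. TNNT2 held GATAA at 225 bases and CATTCC at 81 bases before the start, the latter within an annotated exon. TNNT1 held TATAAA at 29 bases before the start, and the first of 3 TPM4 windows held a CArG match at 173 bases. The second TPM3 window, not shown, held GATAA at 9 bases, and the windows of TPM1 and TPM2 held no match to these letters. Among 34943 windows of the same length, 20.5% held GATAA, 11.9% CATTCC, 10.8% TATAAA, 2.81% the MEF2 motif and 1.16% the CArG motif. A match is a description of the letters and not a measured site.

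Levels were compared between genes as CPM per kilobase of the exon length in the deposited table. TNNC1 stood highest at 468.7 ± 136.5 (SD, n = 6 sums). TNNI1 followed at 214.8 ± 8.97 and TPM1 at 203.5 ± 21.4, and these neighbours overlapped in their ranges, 199.4 to 225.6 and 176.6 to 232. TPM2 (73.6 ± 12.96) and TNNT2 (54.8 ± 11.3) overlapped in the same way. TNNI3 lay at 16.7 ± 4.92, with a range of 8.23 to 22.5 that reached into the 3.88 to 10.5 of TPM4. TPM3 stood at 3.40 ± 0.608 and TNNT1, the lowest, at 1.52 ± 0.488, below the lowest TPM3 sum in all 6 sums.

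This order depends on the length each count is divided by. Per kilobase of principal transcript, TPM1, whose length went from 13765 to 1049 bases, came first at 2670 CPM and TNNC1 came next at 749. TNNT2 followed at 302.4 and TNNI1 at 298.6, then TPM2 at 168.2, TNNI3 at 40.4, TPM4 at 37.2, TPM3 at 33.9 and TNNT1 at 2.77. Leaving out the bases shared with another gene changed only TNNT2 and TNNI3 further. TNNT2 went to 1854 over its 217 unshared bases, at rank 2, and TNNI3 to 93.9, still at rank 6. The counts came from all exons of a gene, so values per kilobase of a single transcript can be too high. Of all exon bases, 1129 of 7342 were shared for TNNT2 and 496 of 2034 for TNNI3. Their values and ranks over unshared transcript bases are therefore not measured levels. Gene counts do not separate the transcripts of a gene, so muscle and cytoskeletal tropomyosins made from the same gene are added together here.

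Troponin I, the inhibitory subunit, was almost all TNNI1 in these counts. TNNI1 lay at 1500, 1615 and 1658 CPM in PVA replicates 1, 2 and 3 and at 1592, 1635 and 1697 CPM in PEDOT replicates 1, 2 and 3. It was the steadiest of the 9 genes, with a largest difference between replicates of a scaffold of 0.144 on the log2 scale. TNNI3 lay at 16.7, 40.2 and 37.3 CPM on PVA and at 30.9, 45.9 and 32.4 CPM on PEDOT. The lowest TNNI3 sum was PVA replicate 1, where both technical libraries were low, at 16.8 and 16.5 CPM, and the scaffolds overlapped. Between the scaffolds, the log2 fold change of PEDOT over PVA was 0.045 ± 0.106 (SE) for TNNI1 and 0.21 ± 0.33 for TNNI3, and neither passed the edgeR test (adjusted p = 1 for both).

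The TNNI3 share of TNNI1 and TNNI3 counts was 1.10%, 2.43% and 2.20% on PVA and 1.91%, 2.73% and 1.87% on PEDOT. Its mean was 1.91% ± 0.708 (SD, n = 3) on PVA and 2.17% ± 0.485 on PEDOT, a difference smaller than either spread (exact two-sided permutation p = 0.7). The smallest p this design allows is 0.1. The share depends on the length each count is set against. Per kilobase of exon length in the deposited table it ran from 3.97% to 9.40% over the 6 sums, and per kilobase of principal transcript outside the second gene from 14.3% to 29.6%. The last range sets counts from all TNNI3 exons against only 361 bases of a single transcript. It can therefore overstate the TNNI3 share and is not an estimate of it.

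Troponin T was almost all TNNT2, the cardiac gene. TNNT2 lay at 369.9, 448 and 315 CPM on PVA and at 373, 547 and 361 CPM on PEDOT. The PEDOT sum was the higher in each of the 3 same-numbered pairs, by 0.013, 0.29 and 0.20 on the log2 scale, yet the scaffolds overlapped. TNNT1, the slow skeletal gene, lay at 2.47, 2.39 and 4.92 CPM on PVA and at 3.52, 2.28 and 3.70 CPM on PEDOT. It rested on 45 to 139 counts per library, the thinnest data among the 9 genes. The log2 fold change was 0.18 ± 0.20 for TNNT2 and -0.043 ± 0.349 for TNNT1 (edgeR adjusted p = 1 for both). TNNT1 made up 0.911% ± 0.549 of troponin T counts on PVA and 0.789% ± 0.326 on PEDOT (exact permutation p = 0.8).

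Troponin C, the calcium sensor, comes from TNNC1 in both heart and slow muscle. It lay at 350.3, 707 and 580 CPM on PVA and at 392, 710.2 and 469.7 CPM on PEDOT. The low sums were both replicates numbered 1 and the high sums both numbered 2, on either scaffold. The log2 fold change between scaffolds was -0.059 ± 0.308 (edgeR adjusted p = 1).

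Among tropomyosins, TPM1, the main cardiac gene, held most of the counts. It lay at 2432, 3104 and 2783 CPM on PVA and at 2683, 3194 and 2611 CPM on PEDOT. TPM2, expressed mainly in slow skeletal and smooth muscle, lay at 205, 293 and 229 CPM on PVA and at 193, 276 and 208 CPM on PEDOT. Both genes were highest in the replicates numbered 2. TPM3 lay at 61.4, 41.9 and 61.35 CPM on PVA and at 53.1, 39.9 and 51.7 CPM on PEDOT. TPM4, whose main product is a cytoskeletal tropomyosin of non-muscle cells, lay at 127.5, 48.0 and 130.2 CPM on PVA and at 113, 51.7 and 96.1 CPM on PEDOT. TPM3 and TPM4 were lowest in the replicates numbered 2, where TPM1 and TPM2 were highest.

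**Figure D2:**
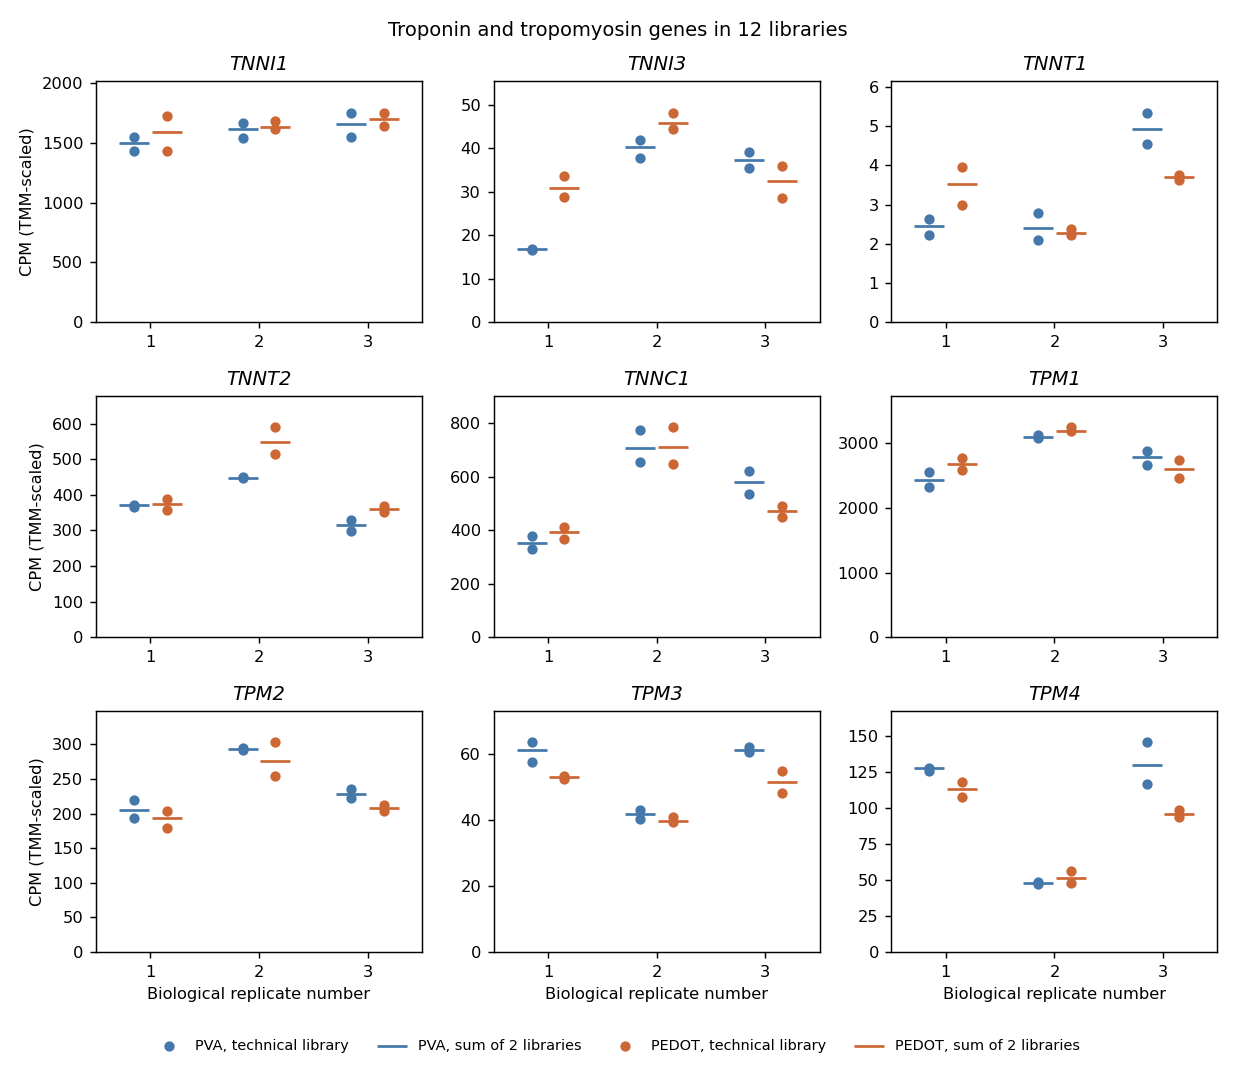
CPM (vertical axis, from 0, own scale per gene) of the 9 genes by biological replicate number (horizontal axis), with PVA in blue and PEDOT in orange. Points are technical libraries and bars are sums of 2 libraries. TPM4 lay at 47.37 to 56.31 CPM in the 4 libraries of replicates numbered 2 and at 93.5 CPM or above in the other 8.

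The TPM1 share of all tropomyosin counts was 87.3% ± 1.53 (SD, n = 3) on PVA and 88.6% ± 0.917 on PEDOT (exact permutation p = 0.3). TPM2 made up 7.61% ± 0.701 and 7.04% ± 0.706, TPM3 1.76% ± 0.503 and 1.54% ± 0.360, and TPM4 3.32% ± 1.70 and 2.81% ± 1.20. Their exact permutation p-values were 0.4, 0.5 and 0.6, and all 6 shares compared had an adjusted p of 0.8. The TPM4 share averaged 4.12%, 1.41% and 3.65% in the replicates numbered 1, 2 and 3, so its spread within a scaffold followed the number. TPM3 has processed copies in the genome, of which TPM3P9 received 103 to 169 counts per library, and reads that match several places are not in these counts.

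**Figure D3:**
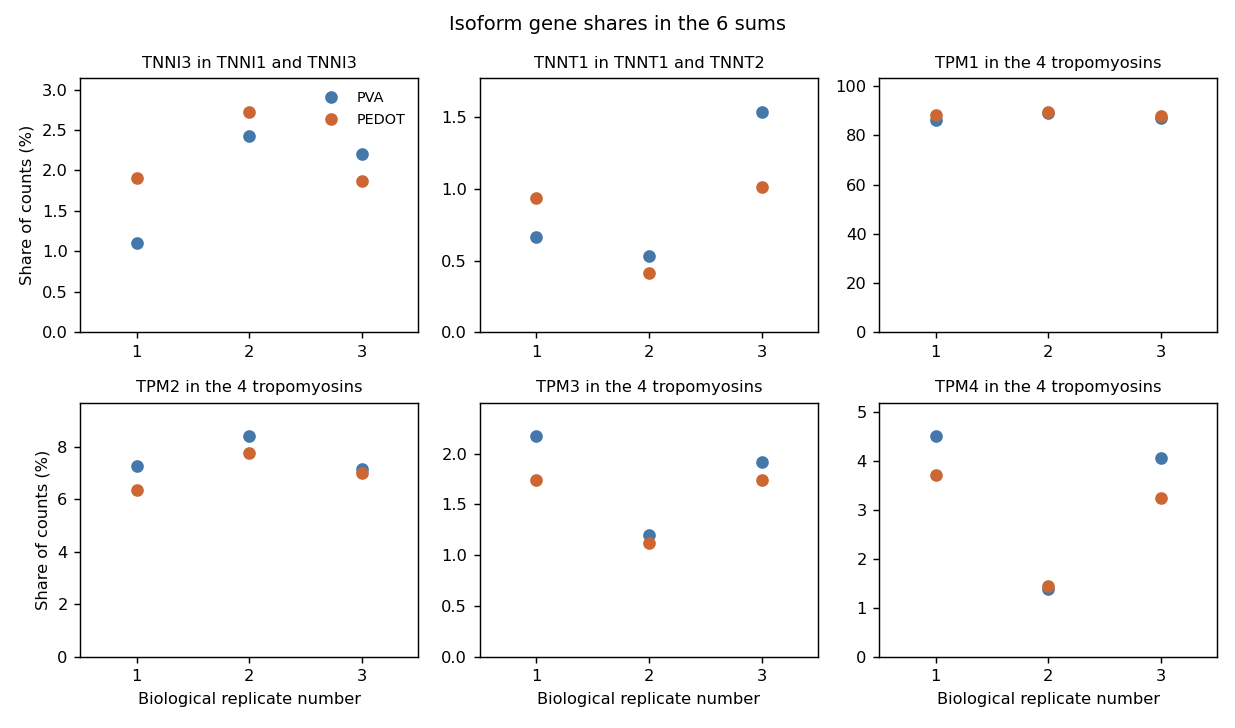
Share of counts in percent (vertical axes, from 0) by biological replicate number (horizontal axes) in the 6 sums, with PVA in blue and PEDOT in orange. The panels give TNNI3 within troponin I, TNNT1 within troponin T and each tropomyosin gene within the 4, and the TPM4 share was 1.38% and 1.45% in the replicates numbered 2 against 3.24% to 4.51% in the others.

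No difference between the scaffolds was called for any of the 9 genes. With the scaffold as the only term, edgeR's quasi-likelihood test called 0 of 21298 genes (0%) after Benjamini-Hochberg adjustment, and 190 (0.892%) had an unadjusted p under 0.05. DESeq2 and limma-voom also called 0 genes. For 0 of the 9 genes did the 3 PEDOT sums lie clear of the 3 PVA sums in either direction, against 4.6% of all genes tested. The remaining log2 fold changes were 0.029 ± 0.151 for TPM1, -0.10 ± 0.18 for TPM2, -0.19 ± 0.18 for TPM3 and -0.23 ± 0.43 for TPM4. Their 95% intervals set what these data could miss. For TNNI1 the interval ran from -0.21 to 0.30, for TNNI3 from -0.57 to 1.00 and for TPM4 from -1.24 to 0.78.

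Same-numbered sums of the 2 scaffolds deviated together, so the fit was repeated with the replicate number as a block. This fit called 57 genes (0.268%), 15 higher (0.0704%) and 42 lower (0.197%) on PEDOT, and 1771 (8.32%) had an unadjusted p under 0.05. Of the 9 genes 0 were called. TPM3 came nearest, at -0.18 ± 0.067 (edgeR adjusted p = 0.472), followed by TNNT2 at 0.17 ± 0.071 (adjusted p = 0.554), and 2 of the 9 had an unadjusted value under 0.05. TNNI3 lay at 0.28 ± 0.14 (adjusted p = 0.641) and TPM4 at -0.17 ± 0.085 (adjusted p = 0.635). In all 3 pairs TNNI1 and TNNT2 lay higher on PEDOT and TPM2 and TPM3 lower, which makes 4 of 9 genes against 28.9% of all genes. The median log2 fold change of the 9 genes was -0.001 in this fit and that of all genes -0.004.

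The TNNI3 value depended on which pairs entered. The log2 difference of PEDOT from PVA was 0.88 in pair 1, 0.19 in pair 2 and -0.20 in pair 3. Without pair 3 the fit with the block called TNNI3 at 0.53 (adjusted p = 6.03e-04), when 284 genes were called in all. Without pair 1 its difference was -0.00427 (adjusted p = 0.995), when 170 genes were called.

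**Figure D4:**
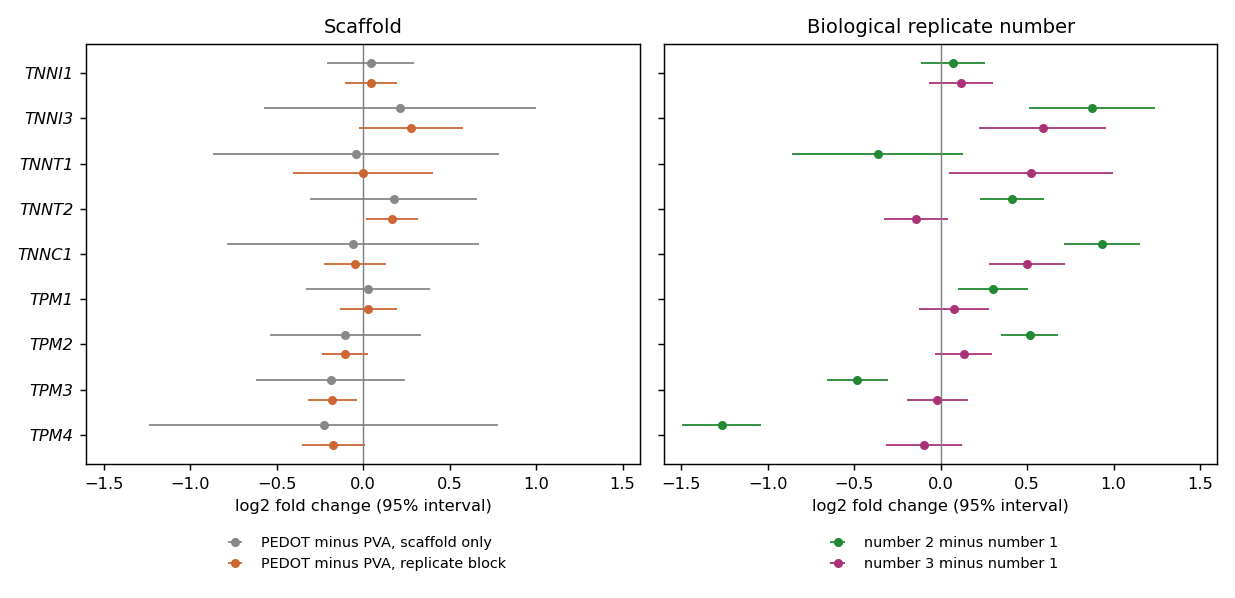
log2 fold changes (horizontal axes) of the 9 genes (vertical axis) with 95% intervals from edgeR. The left panel gives PEDOT minus PVA with the scaffold as the only term (grey) and with the replicate block (orange), and the right panel gives replicate number 2 minus 1 (green) and 3 minus 1 (purple). Intervals for the scaffold included 0 for every gene in grey. In orange those of TNNT2 (0.014 to 0.318) and TPM3 (-0.321 to -0.033) did not, though neither gene was called after adjustment. TPM4 lay at -1.27 in number 2 minus 1.

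The replicate number separated most of these genes. In the fit with the number and the scaffold, an F test over the number called 7 of the 9 genes, against 31.8% of all genes. TPM4 had the smallest adjusted p (1.13e-06), followed by TNNC1 (2.96e-05), TPM2 (2.95e-04), TNNT2 (4.53e-04), TPM3 (6.28e-04), TNNI3 (0.00372) and TNNT1 (0.0205). TPM1 (adjusted p = 0.0509) and TNNI1 (adjusted p = 0.535) were not called. The number held 66.8% to 94.5% of the variance of each gene's log2 CPM over the 6 sums, and the scaffold 0.0185% to 17%. TNNI1 and TPM1, which were not called, stood at 76.3% and 86.7% for the number. With only 6 sums a large share thus need not go with a call. The number has more terms in this split than the scaffold, so its share is larger on average even without any difference. Shares over all genes were not computed. Each number has 1 sum per scaffold, and the labels do not say whether a number stands for a differentiation, a culture or a day. The p-values set differences between numbers against what is left between same-numbered sums of the scaffolds. They therefore hold for these samples and do not speak for further cultures.

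Replicates numbered 2 had more of 5 sarcomeric genes and less of TPM3 and TPM4 than those numbered 1. TNNC1 was 1.91-fold higher (log2 0.93 ± 0.10), TNNI3 1.84-fold (0.88 ± 0.17), TPM2 1.43-fold (0.52 ± 0.077), TNNT2 1.33-fold (0.41 ± 0.087) and TPM1 1.23-fold (0.30 ± 0.094). TPM4 lay at 0.416 of its level in number 1 (-1.27 ± 0.11, adjusted p = 6.09e-07) and TPM3 at 0.716 (-0.48 ± 0.082, adjusted p = 4.80e-04). These 5 genes higher and 2 lower compare with 13.3% of all genes higher and 15.7% lower (28.9% together). The median size of the difference was 0.48 over the 9 genes and 0.28 over all genes. TNNT1 (-0.36 ± 0.23) and TNNI1 (0.073 ± 0.086) were not called. The TNNI3 difference was 0.481 without PVA replicate 1 and 1.37 without PEDOT replicate 1, and DESeq2 did not call it (0.892, adjusted p = 0.079). The TPM1 call was lost in 4 of 19 settings, without PVA replicate 1 (adjusted p = 0.148), PVA replicate 2 (0.105) or PEDOT replicate 2 (0.106) and in the higher-numbered technical libraries (0.0989). Both sums numbered 2 lay above the other 4 in 5 of the 9 genes and below them in 3, against 19.1% and 19.9% of all genes.

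Replicates numbered 3 differed less from those numbered 1. TNNC1 was 1.41-fold higher (0.50 ± 0.10, adjusted p = 0.00491) and TNNI3 1.51-fold (0.59 ± 0.17, adjusted p = 0.0355), which makes 2 genes higher and 0 lower, against 6.79% higher and 6.42% lower (13.2% together) among all genes. The TNNI3 call was lost in 12 of the 19 alternative settings. In 10 of these its value was 0.478 to 0.603, near the 0.59 of the full data, as in DESeq2 (0.602, adjusted p = 0.388). Its value was 0.17 without PVA replicate 1 (adjusted p = 0.539) and 0.23 without PVA replicate 3 (adjusted p = 0.412), and up to 1.06 without PEDOT replicate 1. TNNC1 was lost in 2 settings, without PVA replicate 3 (0.305, adjusted p = 0.184), where 0 of the 9 genes were called, and in the higher-numbered technical libraries (0.304, adjusted p = 0.0755).

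In number 3 against number 2, TPM4 (1.17 ± 0.11), TNNT1 (0.89 ± 0.23) and TPM3 (0.46 ± 0.082) were higher. TNNT2 (-0.56 ± 0.087), TNNC1 (-0.44 ± 0.10) and TPM2 (-0.38 ± 0.076) were lower. These 3 higher and 3 lower compare with 11.9% and 7.57% of all genes (19.4% together). TNNI3 and TPM1, not called here, were each called in 5 other settings. With every gene with a count kept, TNNI3 lay at -0.286 (edgeR adjusted p = 0.0463) and TPM1 at -0.224 (adjusted p = 0.0225). Without PEDOT replicate 3, TNNC1 (-0.247, adjusted p = 0.306) and TPM2 (-0.359, adjusted p = 0.0664) were not called. TNNC1 was lost in 3 settings, also without PVA replicate 2 (-0.487, adjusted p = 0.0611) and without PEDOT replicate 2 (-0.40, adjusted p = 0.0803). TNNT1 was lost in 4 settings, among them that without PVA replicate 3 (0.544, adjusted p = 0.345).

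The replicates numbered 2 carried most of these calls. Without both of their sums, 3020 genes were called over the remaining numbers and only TNNC1 among the 9. TNNT1 had the least settled call, since its adjusted p was 0.359 without PVA replicate 3, 0.108 without PVA replicate 2 and 0.0884 without PEDOT replicate 2. TNNI3 was at an adjusted p of 0.0501 without PVA replicate 2 and at 0.186 in DESeq2. TPM1, just outside the threshold, was called in 8 of 21 settings, among them DESeq2 (adjusted p = 0.00656) and limma-voom (adjusted p = 0.0128).

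Technical libraries of a replicate lay closer together than replicates of a scaffold for every gene but TNNI1. The median difference between them ran from 0.0788 (TPM3) to 0.227 (TNNT1) on the log2 CPM scale. The median difference between numbers within a scaffold ran from 0.0731 (TNNI1) to 1.01 (TPM4). For TPM4 the technical libraries differed by at most 0.32, in PVA replicate 3, against up to 1.44 between numbers. For TNNI1 the order was turned, with a technical difference of up to 0.269 in PEDOT replicate 1 and at most 0.144 between numbers.

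Markers of other cell types moved with the number beside these genes. Among all genes 31.8% were called over the number, and 13.3% were higher and 15.7% lower in number 2 than in number 1. All 9 fibroblast markers were called over the number, 7 of them lower and 1 higher in number 2 than in number 1, with a list median of -2.45, against a median of -0.004 over all genes. LUM, a matrix proteoglycan, was lower (-4.13 ± 0.21), as was COL1A1, a collagen chain (-2.96 ± 0.17). POSTN, a matricellular protein, went the other way (1.55 ± 0.13, adjusted p = 4.48e-07), at 45.8 and 40.6 CPM in the replicates numbered 2 and 13.9 to 20.5 CPM in the others. All 8 smooth muscle markers were called, 6 lower and 2 higher in number 2. MYH11, the smooth muscle myosin, was lower (-3.30 ± 0.11), and DES, the muscle intermediate filament desmin (0.89 ± 0.098), and SMTN, smoothelin (0.46 ± 0.088), were higher. POSTN, DES and SMTN were named after their values were seen. Of 10 cardiomyocyte markers 8 were called and 7 were higher, among them MYL7, the atrial regulatory light chain (1.35 ± 0.13), and MYBPC3, a myosin binding protein (0.69 ± 0.086). MYH7, the slow myosin heavy chain, was lower (-0.72 ± 0.21, adjusted p = 0.0178). Smooth muscle markers summed to 2180, 1715 and 2344 CPM on PVA and to 1993, 1466 and 1824 on PEDOT. Several of them, such as ACTA2 and DES, are also expressed in young cardiomyocytes. The part of these markers in the levels of TPM3, TPM4 and the sarcomeric genes was not tested.

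**Figure D5:**
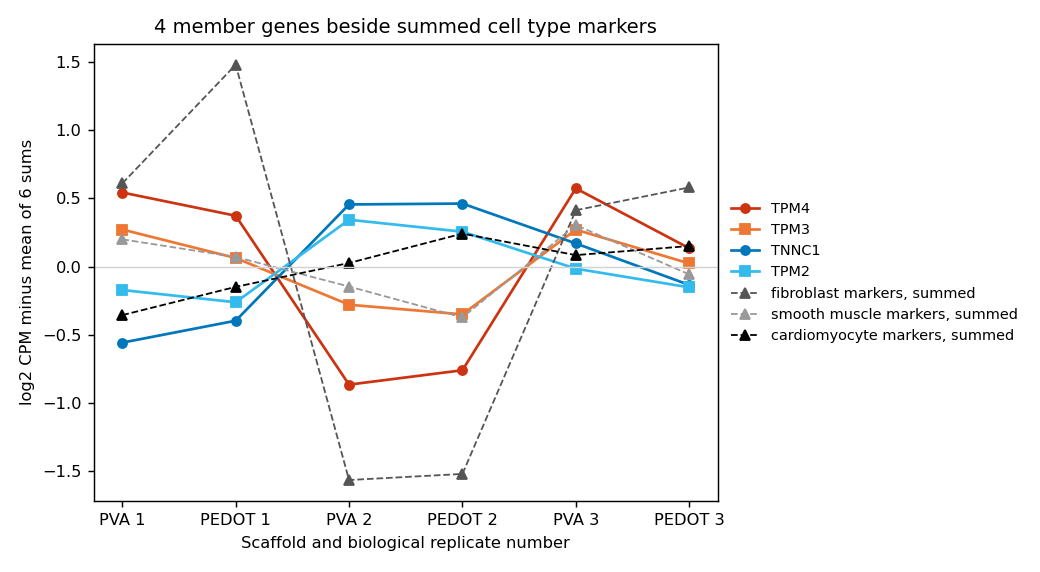
log2 CPM minus the mean of the 6 sums (vertical axis) in each sum (horizontal axis) for TPM4, TPM3, TNNC1 and TPM2 (solid lines) and for the summed markers of fibroblasts, smooth muscle and cardiomyocytes (dashed lines). The lines only join the points of a series. Fibroblast markers, at 819.9 and 845.7 CPM in the replicates numbered 2, were lowest in the same sums as TPM4.

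Between the scaffolds the same marker lists had 0 genes called with the scaffold as the only term. With the block, MYH7 was higher on PEDOT (0.95, adjusted p = 0.0382) and ACTA2, smooth muscle actin, lower (-0.41, adjusted p = 0.0334). Dividing cell markers summed to 184.5, 144.4 and 208.9 CPM on PVA and to 77.7, 120.2 and 229.7 on PEDOT, with 0 genes called. Skeletal muscle markers summed to 19.8 to 78.1 CPM on PVA and 20.4 to 89.1 on PEDOT. Most of that was ACTN3, a fast fibre actinin, at 12.9, 66.3 and 44.9 CPM on PVA. Fibroblast sums were higher and smooth muscle sums lower on PEDOT than on PVA in all 3 pairs. TPM4 was lower on PEDOT in pairs 1 and 3 and higher in pair 2, and its relation to either list was not tested.

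The fast skeletal troponins were near the bottom of the scale. TNNT3, fast troponin T, lay at 2.62, 0.131 and 1.38 CPM on PVA and at 3.69, 0.259 and 1.43 on PEDOT, and was lower in number 2 than in number 1 (-4.00 ± 0.33, adjusted p = 5.82e-07). TNNI2, fast troponin I, lay at 0.606 to 1.77 CPM over the 6 sums and was higher in number 2 (0.98 ± 0.29, adjusted p = 0.0208). TNNC2, fast troponin C, lay under 0.5 CPM and was not called. Over the scaffold 0 of these 3 genes were called.

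Partners of the thin filament were called over the number in 9 of 18 cases, with 7 higher and 3 lower in number 2 minus 1. Among all genes 31.8% were called over the number, and 13.3% were higher and 15.7% lower in number 2 minus 1. LMOD3, a leiomodin that nucleates actin in striated muscle, was higher (1.51 ± 0.12), as was LMOD2, its cardiac relative (0.78 ± 0.13). TMOD2, a tropomodulin that caps filaments, was lower (-0.60 ± 0.089). Of 17 kinases and phosphatases that act on troponin or are tied to it, 7 (41.2%) were called. Among them were PRKD1, which phosphorylates troponin I (0.95 ± 0.12), PAK1 (0.77 ± 0.10) and PRKCE (-0.46 ± 0.082). TNNI3K, a cardiac kinase named for binding TNNI3, had the smallest scaffold p of that list at 0.31 ± 0.15 and was not called. Over the scaffold without the block, 0 genes of these lists were called, and with it 0 as well.

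Of 15 muscle transcription factors 8 were called over the number, 7 higher and 1 lower in number 2 minus 1. TBX20 (0.55 ± 0.078), NKX2-5 (0.51 ± 0.082) and TBX5 (0.24 ± 0.075), all cardiac regulators, were higher. GATA4, the cardiac GATA factor, lay at 340.1 to 366.9 CPM and did not pass over the number (adjusted p = 0.91). Of 12 regulators of troponin and tropomyosin splicing 5 were called, with RBM20 (0.36 ± 0.081) and RBM24 (0.28 ± 0.081) higher and RBFOX1 (-0.34 ± 0.075) lower. All of these lists were chosen with earlier results of these data known, and the share called over the number among all genes was 31.8%.

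Across the 12 libraries the 9 genes fell into patterns that are given as description only. The libraries share sources, since technical libraries of a replicate count as separate points. TPM3 and TPM4 followed each other (Pearson r = 0.945 of log2 CPM), as did TNNC1 and TPM2 (r = 0.913). TNNT2 and TPM4 ran in opposite directions (r = -0.872). Among 9967 other genes with a mean of at least 10 CPM, those most like TPM4 were VIM, the intermediate filament vimentin (r = 0.987), and AMOT (r = 0.986). TPM3 was most like HUNK (r = 0.969) and ACVR1, a receptor of the TGF-beta family (r = 0.968). TNNC1 was most like NDUFC1, a subunit of respiratory complex I (r = 0.988), and HINT1 (r = 0.978), and TPM2 was most like NDUFA3, also of complex I (r = 0.972), and RPS23, a ribosomal protein (r = 0.96). TNNI3 was most like GPD1L (r = 0.969) and FITM2 (r = 0.963), TNNT2 like ZNF76 (r = 0.966) and MAPKBP1 (r = 0.961), and TPM1 like SLC12A4 (r = 0.962) and TIMM44 (r = 0.961). For TNNT1 the nearest were CPEB4 (r = 0.91) and ADAMTS15 (r = 0.906), and for TNNI1 GYS1, muscle glycogen synthase (r = 0.899), and KCNQ1, a cardiac potassium channel (r = 0.886).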

How the data were processed

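Read pairs were counted per gene name in 12 libraries, and the authors deposited these counts without normalization. They used featureCounts 2.0.1 (paired-end, strand setting 2) on GENCODE 33, per the file headers. The submitters' processing notes name FastQC, STAR, DESeq2, edgeR and the build hg38. RNA was ribodepleted total RNA, per the labels' protocols. Versions and options of the aligner are not given in the sources used for this work. Exon lengths come from the deposited table, and 0 of its rows name no gene.

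Technical libraries were summed per biological replicate. What separates them is not stated, and they differed beyond counting noise (chi-square per gene 5.32 to 12.9). Genes kept by filterByExpr (minimum count 10, total 15) were scaled with TMM and tested with edgeR 4.0.16 in R 4.3.3 (quasi-likelihood, two-sided, Benjamini-Hochberg over all 21298 genes, threshold 0.05). DESeq2 1.42.0 and limma 3.58.1 were alternatives. Each SE was taken from the log2 fold change and the F statistic. A prior count of 2 entered log2 CPM. Shares were compared by exact permutation over the 6 sums. Across genes, same-numbered sums deviated from their scaffold means together (r = 0.678, 0.703 and 0.503). Sums of different numbers gave r = -0.609 to -0.005. The deviations within a scaffold add to 0, so these lower values follow in part from the same-numbered ones. On the same-numbered values, the numbers were taken to pair the samples, though no label states it.

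Shared bases were counted on principal transcripts of GENCODE 29 against exons of the deposited table. The members, lists and most settings were chosen with earlier results of these data known. Besides the 9 members, the text names up to 3 genes of smallest p per list and test and the 2 genes most like each member. The fit with the scaffold as the only term and the fit of the number were tested on simulated counts with known changes. Counts simulated for the scaffold held no difference between numbers, unlike the data. The scaffold test with the block was not simulated. The scaffold fit recovered 0 of 67 genes changed 1.5-fold, 29 of 67 changed 2-fold and 58 of 66 changed 4-fold, with 11 false calls. The fit of the number recovered 45 of 67, 63 of 67 and 66 of 66, with 22 false calls. Small differences between the scaffolds could thus be missed.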

Additional observations from a re-analysis of the deposited data

How the results depend on the processing

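For the scaffold, 0 members were called in 20 of 21 settings and 1 (TNNI3) with the replicate block without pair 3. The count of genes was 0 in the settings without a block. With the replicate block it was 57, and it became 170, 22 and 284 without pairs 1, 2 and 3, and 36 and 63 without technical library 1 or 3 of PVA replicate 3. The block changed no call of a member. Without each sum in turn, scaffold differences turned sign for TNNI3 (-0.0912 to 0.432), TNNT1 (-0.222 to 0.383), TNNT2 (-0.0429 to 0.324), TNNC1 (-0.344 to 0.176), TPM1 (-0.0687 to 0.122), TPM2 (-0.276 to 0.0615) and TPM4 (-0.564 to 0.0381), and TPM3 kept its sign (-0.344 to -0.0683). They also turned for TNNI1 (-0.00873) and TPM1 (-0.00039) in the lower-numbered technical libraries and for TNNT1 (0.0223) in the higher-numbered. With the block they turned without pair 1 for TNNI3 (-0.00427) and TPM1 (-0.0236), without pair 2 for TNNT1 (0.0264), without pair 3 for TNNT1 (0.232) and TNNC1 (0.0822), and without technical library 3 of PVA replicate 3 for TNNT1 (0.05). All of these are uncalled differences, and the cause was not tested.

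Shares turned sign without a sum for TNNI3 (-0.146 to 0.516 percentage points), TNNT1 (-0.313 to 0.192) and TPM4 (-1.48 to 0.164).

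Over the number, 5 to 8 members and 4538 to 7702 genes were called in all settings but that without both sums of number 2 (1 member, 3020 genes), which leaves fewer numbers to compare. Genes called in number 3 minus 1 were 1835 among those of at least 5 CPM on average, where fewer genes were tested, and in number 3 minus 2 were 2626 in the lower-numbered libraries. Without each sum in turn they ran from 3501 to 6155 for number 2 minus 1, from 1558 to 3111 for number 3 minus 1 and from 1993 to 5330 for number 3 minus 2. Number 3 minus 1 turned for TPM2 (-0.00213) and TPM3 (0.0618) in the higher-numbered libraries, and number 3 minus 2 for TNNI1 there (-0.0743) and without technical library 1 of PVA replicate 3 (-0.00393). Without a sum, number 3 minus 1 ran from -0.00992 to 0.172 for TPM1, from -0.0698 to 0.0357 for TPM3 and from -0.303 to 0.099 for TPM4, number 2 minus 1 from -0.714 to 0.0584 for TNNT1, and number 3 minus 2 from -0.676 to 0.054 for TNNI3. Settings without both sums of a number and without a technical library were added after the data were seen, as were levels per kilobase of principal transcript and levels and shares per unshared kilobase. Where a left-out sum leaves a number with 1 sum, that sum is assumed to vary like the others. Depth limits TNNT1 most.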
